A study of Cardamine hirsuta with 24 samples.

Results

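*NPC4* (CARHR077540) of *Cardamine hirsuta*, 1 of 29458 genes listed in every library, is described here across 24 RNA-seq libraries. It was chosen by its identifier, with its values in these libraries already known, so its own levels and differences are given as a description and carry no p-value. Its name comes from the study's supplementary tables, which pair CARHR077540 with the *Arabidopsis thaliana* gene AT3G03530. The seedlings were 12 days old, of the Oxford genotype, and all of them carried RCOp::LhG4:GR; Op::ChCUC1:Venus, so the Mock seedlings held the transgene as well. In this line the *RCO* promoter, which is active in restricted domains at the leaf margin, drives a steroid-dependent activator that switches on a ChCUC1:Venus fusion when dexamethasone is present. The medium was liquid MS, to which either dexamethasone at 10 µM (the Dex groups) or DMSO at 0.1% (the Mock groups) had been added. Shoot apices freed of cotyledons, roots and mature leaves were taken at 2, 4, 6 and 8 h. Each library is a pool of 20 seedlings, and each of the 8 groups of treatment and time holds 3 libraries.

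In *A. thaliana*, NPC4 is a non-specific phospholipase C. Such enzymes cut the head group from membrane phospholipids and sphingolipids and leave diacylglycerol or ceramide, unlike the phosphoinositide-specific phospholipases C, which act on phosphorylated inositol lipids. Diacylglycerol from this step can enter galactolipid synthesis or be turned into phosphatidic acid, a lipid signal that phospholipases D also make. NPC4 is known there for plasma membrane lipid remodelling in phosphate-starved roots and for root growth and root hairs. The *A. thaliana* roles of other genes are given below in the same way, as background.

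The libraries held 12850309 to 22956929 gene counts. The induced gene *ChCUC1* (CARHR090150), whose reads can come from the transgene or from the native gene without distinction, was higher in Dex than in Mock by 1.70 ± 0.19 (log2 fold change and SE, average of the 4 times). Shoot apex markers *KNAT1*, *ANT* and *AS2*, the 3 of 10 listed that could be named and tested, were above 0 in every library and summed to 30.0 to 51.0 CPM (the usual scaled read count, here with library sizes adjusted by TMM). The defining apex genes *STM*, *WUS* and *CLV3* could not be named and were not checked. Adjusted p-values below are Benjamini-Hochberg values from edgeR's quasi-likelihood test over 21689 genes, and a called gene has an adjusted p under 0.05 and a change of more than 1.5-fold. They set each difference against the spread between these pools, which was estimated over all 8 groups together.

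*NPC4* was high in all 6 libraries at 2 h and low in all 18 later ones. At 2 h it stood at 23.5, 28.8 and 27.0 CPM in Mock replicates 1, 2 and 3 (418, 609 and 549 reads). In Dex at 2 h it stood at 11.96, 13.1 and 10.4 CPM (251, 276 and 231 reads). The highest Dex library at 2 h lay well below the lowest Mock library, so the treatments did not overlap at this time.

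At 4 h the 3 Mock libraries held 1.75, 1.85 and 2.27 CPM, and the Dex libraries 2.43, 2.05 and 1.78 CPM. At 6 h the Mock libraries held 2.40, 2.00 and 2.71 CPM, and the Dex libraries 1.59, 1.80 and 1.57 CPM. At 8 h the Mock libraries held 2.23, 2.31 and 2.03 CPM, and the Dex libraries 1.47, 1.87 and 1.91 CPM. The treatments overlapped at 4 h, whereas at 6 h and 8 h each Dex library was below each Mock library. All 18 later libraries lay between 1.47 and 2.71 CPM, with 26 to 53 reads each, and the lowest library at 2 h was 3.83 times the highest of them.

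**Figure D1:**
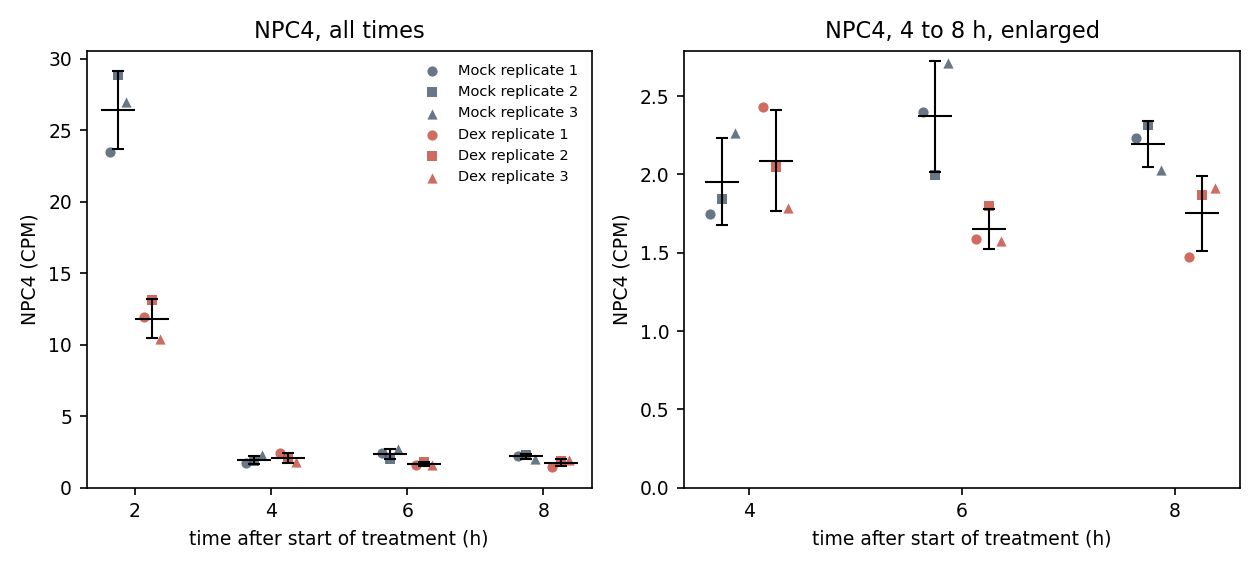
*NPC4* in CPM (vertical axis) against time in h (horizontal axis) in Mock (grey) and Dex (red), with all times at left and 4 to 8 h enlarged at right. Each point is 1 library, its shape gives the replicate number, and the bars are the mean ± SD of 3 libraries; the 2 h libraries stand at 10.4 CPM or more and all later ones at 2.71 CPM or less.

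Ordered by their means, the groups began with Mock at 2 h (26.4 ± 2.73 CPM, SD, n = 3) and Dex at 2 h (11.8 ± 1.38). Mock at 6 h (2.37 ± 0.356) and 8 h (2.19 ± 0.147) followed, then Dex at 4 h (2.09 ± 0.324) and Mock at 4 h (1.95 ± 0.276). Dex at 8 h (1.75 ± 0.241) and Dex at 6 h (1.65 ± 0.127) were the lowest. Each of the first 2 groups was separated from the next in the order, by a ratio of means of 2.24 and then of 4.99. Neighbours among the other 6 groups differed by ratios of 1.05 to 1.12, and their ranges overlapped.

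Most of the fall lay between 2 h and 4 h in both treatments. In Mock, *NPC4* was 13.5-fold lower at 4 h than at 2 h (log2 fold change -3.76 ± 0.18, SE) and 12.03-fold lower at 8 h than at 2 h (-3.59 ± 0.17). In Dex, which began from a lower level, it was 5.63-fold lower at 4 h (-2.49 ± 0.17) and 6.73-fold lower at 8 h (-2.75 ± 0.17). The ranges at 2 h and at the later time were apart in each of these comparisons. So they were, with lower values at the later time, for 16.9% of the genes tested in Mock and 13.8% in Dex at 4 h, and for 32.1% and 22.2% at 8 h. These are the contrasts that chose the gene, and no more is read from them.

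After 4 h the successive steps of *NPC4* were small, at 0.28 ± 0.17 and -0.11 ± 0.17 in Mock and at -0.34 ± 0.18 and 0.08 ± 0.18 in Dex on the log2 scale for 6 h against 4 h and 8 h against 6 h. The ranges of the libraries overlapped at each of these 4 steps. Because the tissue was sequenced in bulk, fewer cells with *NPC4* RNA and less of it per cell cannot be told apart.

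Dex against Mock compares seedlings given dexamethasone with seedlings given DMSO. As all of them carried the transgene, ChCUC1 induction, dexamethasone itself and the activated LhG4:GR cannot be told apart in this difference. At 2 h *NPC4* was at 44.7% of its Mock mean, 2.24-fold lower (log2 fold change -1.16 ± 0.15, SE), and by replicate number the Dex library was lower by -0.97, -1.13 and -1.37 in log2 CPM. All 3 Dex libraries lay below all Mock libraries for 15.1% of the genes tested. At this time 1 of 21689 genes was called (0.00461%), which is *NPC4*, and 3047 genes had an unadjusted p under 0.05. As this contrast is among those that chose the gene, nothing is read from the call. The count at 2 h depended on single libraries: it was 0 without Dex replicate 1, without Dex replicate 3 or without Mock replicate 3, 6 without Mock replicate 2 and 260 without Dex replicate 2. DESeq2 called 117 genes.

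At 4 h the difference was 0.10 ± 0.18 on the log2 scale, and its sign turned (-0.02) without Dex replicate 1. At 6 h *NPC4* in Dex was at 69.7% of the Mock mean (-0.52 ± 0.17), with a gap of 0.201 CPM between the highest Dex and the lowest Mock library. At 8 h it was at 79.9% (-0.32 ± 0.17), with a gap of 0.115 CPM, which closed to an overlap when library totals were used in place of TMM-scaled sizes. Groups were likewise apart, with Dex lower, for 4.23% of genes at 6 h and 19.1% at 8 h. No gene was called by edgeR at 4, 6 or 8 h (0 of 21689), where 4784, 2183 and 3433 genes had an unadjusted p under 0.05 and DESeq2 called 134, 2 and 136.

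On the log2 scale the Dex difference of *NPC4* at 8 h was smaller in size than at 2 h by 0.84 ± 0.23. Averaged over the 4 times, *NPC4* was 1.39-fold lower in Dex (-0.47 ± 0.08), short of the 1.5-fold limit.

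**Figure D2:**
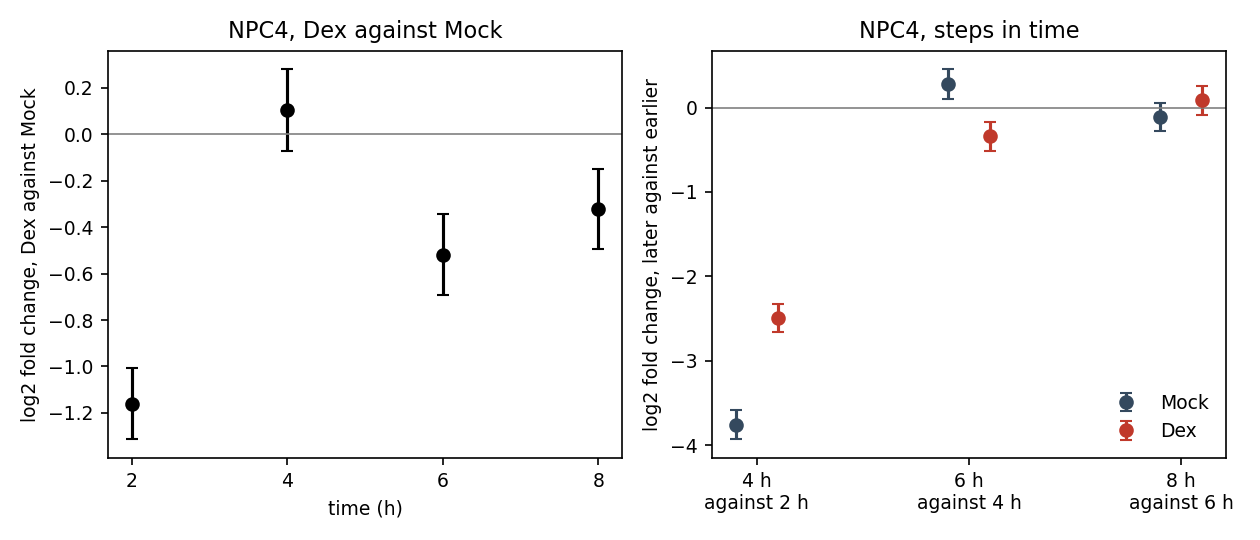
Log2 fold change of *NPC4* ± SE (vertical axes) for Dex against Mock at each time in h (left) and for each step in time within Mock (grey) and Dex (red) (right). The Dex difference is -1.16 at 2 h and between -0.52 and 0.10 later. Most of the change in time lies in the first step, -3.76 in Mock and -2.49 in Dex.

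Counting error limits what the later times can show. With 26 to 53 reads, counting alone gives an error of 13.7% to 19.6% per library at 4 to 8 h, against 4.05% to 6.58% at 2 h. The coefficient of variation between replicates was 10.3% in Mock and 11.6% in Dex at 2 h, above the counting error of 4.42% and 6.31%. In the later groups it was 6.71% to 15.5%, at or under the counting error of 14.9% to 18.2%. At this depth a difference such as that at 8 h is thus close to the error of counting. For Dex against Mock, DESeq2 gave *NPC4* the same SE of 0.15 at 2 h. Its SE was larger than edgeR's at 4 h (0.25 against 0.18) and 6 h (0.24 against 0.17). The later differences are thus less certain than edgeR's SEs alone show. Over all groups the biological coefficient of variation fitted for *NPC4* was 13.2%, against a median of 19.7% over the genes tested, and 12.7% of genes had a lower one.

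Root tissue was removed before harvest, and since NPC4 is known from roots, root markers were followed beside it. Of 12 listed, 9 had a name pair, 5 of them only through tables of genes that the study called on these libraries, and 8 were tested. They summed to 18.8, 90.5 and 63.7 CPM in Mock replicates 1, 2 and 3 at 2 h and to 260.3, 62.9 and 251.7 CPM in Dex replicates 1, 2 and 3. The later libraries summed to 18.0 to 49.1 CPM. Root markers were thus present at 2 h and lower afterwards, as *NPC4* was, with 4 of 8 called lower in Mock at 4 h against 2 h (8.44% of all genes were) and 3 of 8 in Dex (4.19%). At 8 h against 2 h, 5 of 8 were called lower in Mock (15.5% of all genes) and 7 of 8 in Dex (10.7%). Most of the 8 were paired in tables of called genes, so these counts give no independent support. At 4 h against 2 h each of these calls was lost in 3 to 7 of 14 alternative fits, most of them with libraries left out. At 8 h against 2 h each was lost in 1 to 9 of 14. All kept their direction.

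Single root hair genes differed in how far they showed this. *RHS13* (CARHR250480), a root hair specific gene, stood at 0.281, 18.1 and 11.9 CPM in Mock at 2 h and at 31.5, 9.08 and 27.6 CPM in Dex, and was at 0 in all 3 Mock libraries at 8 h. *EXPA18* (CARHR048670), a root hair expansin, was at 0.0562, 3.55 and 1.97 CPM in Mock at 2 h, and at 0 in all 3 Mock libraries at 4 h and again at 8 h. *RHS19* (CARHR280200), a root hair peroxidase gene, was called lower in Dex at 4 h and 8 h against 2 h. In Mock it was not (adjusted p = 0.101 and 0.375 by edgeR). In Mock replicate 1 it was at 0.786 CPM at 2 h, 4.93 at 4 h and 11.3 at 6 h. *SHR* (CARHR246030), a transcription factor of the root stele that shoots also express, stayed between 10.8 and 23.4 CPM in every library. Up to 4 of the 8 markers were at 0 in a later library and at most 1 in a library at 2 h.

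*NPC4* did not follow these markers in every library. Mock replicate 1 at 2 h had a root marker sum of 18.8 CPM, inside the range of the later libraries, with *RHS18* (CARHR191120) at 0 and *CASP1* (CARHR130330), a gene of the Casparian strip in the root endodermis, at 1.29 CPM, yet *NPC4* was at 23.5 CPM there. Among treatments at 2 h the median of the markers went the other way. Their sums overlapped, with Dex replicate 2 at 62.9 CPM below Mock replicates 2 and 3 at 90.5 and 63.7 CPM. The median log2 fold change of the 8 markers in Dex against Mock was 1.77, with 0 of 8 called, where *NPC4* was at -1.16. The r of single root markers with *NPC4* over the 24 libraries, which share the groups, was 0.34 to 0.74, and is a description. The share of root cells in the fall of *NPC4* was not tested further.

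**Figure D3:**
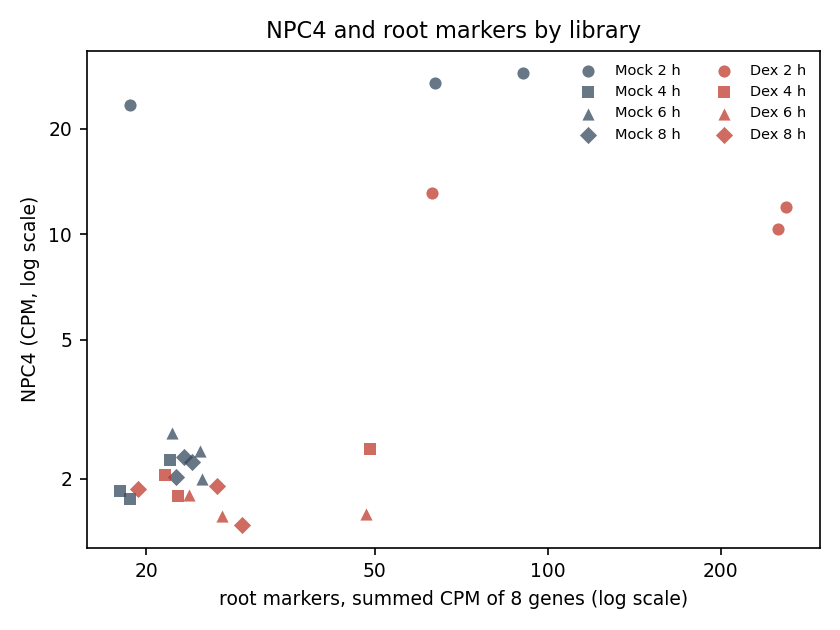
*NPC4* in CPM (vertical axis, log scale) against the summed CPM of 8 root markers (horizontal axis, log scale), 1 point per library, with colour for the treatment and shape for the time. Mock replicate 1 at 2 h lies at 18.8 CPM of root markers and 23.5 CPM of *NPC4*, while later libraries with 18.0 to 49.1 CPM of root markers have at most 2.71 CPM of *NPC4*.

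Stress genes differed between the treatments in the average of the times. At each single time 0 of 10 heat shock and 0 of 3 hypoxia genes were called, where at most 1 of 21689 genes was. Of 12 listed heat shock genes 10 could be tested, and they summed to 107 to 670 CPM in Dex at 2 h and to 747 to 2894 CPM in Mock. All 10 were called lower in Dex when the times were averaged (8.89% of all genes were), but all 10 could be named only through the study's tables of genes it called on these libraries, so the count was largely set by how they were named. Hypoxia genes, 3 of 10 listed, summed to 82.8 to 110 CPM in Dex at 2 h and to 149 to 162 CPM in Mock, and all 3 were called lower in the average, 2 of them named only through those tables. Only at 6 h did the sums of the treatments overlap. Heat shock genes then summed to 94.6 to 859 CPM in Dex and 717 to 3347 CPM in Mock. Hypoxia genes summed to 44.0 to 675 CPM and 491 to 1577 CPM. Mock replicate 1 had the highest heat shock sum at 2, 4, 6 and 8 h (2894, 2921, 3347 and 1015 CPM). Without replicate 3 no gene was called in the average (0 of 21729). The part of heat shock or hypoxia genes in the Dex difference of *NPC4* was not tested.

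Genes whose log2 CPM ran most like *NPC4* over the 24 libraries were sought among all genes tested by Pearson's r, as a description. At r of 0.9 or more there were 88 genes, of which 15 had a name pair, and at 0.8 or more 533 genes. Of the 8 named genes with the highest r, the first was CARHR091560 (AT3G16350, r = 0.96), at 12.9 ± 2.75 CPM (SD, n = 3) in Mock and 5.99 ± 2.36 in Dex at 2 h, and at 1.64 ± 0.272 and 1.63 ± 0.193 CPM at 4 h. CARHR243700 (AT4G35380, r = 0.95) and CARHR046330 (AT1G64590, r = 0.95) came next, followed by CARHR033110 (AT1G33700, r = 0.93) and CARHR085840 (AT3G11280, r = 0.92).

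Among these genes are transcription factor genes. *ANAC038* (CARHR117630, r = 0.92), of the NAC family, was at 5.98 ± 0.325 CPM in Mock and 2.38 ± 0.553 in Dex at 2 h, and at 0.193 ± 0.168 and 0.384 ± 0.0346 CPM at 4 h. *LBD29* (CARHR168570, r = 0.92), which acts in lateral root formation in *A. thaliana*, was at 2.45 ± 1.07 CPM in Mock and 0.737 ± 0.600 in Dex at 2 h, and at or under 0.113 CPM on average in each later group. CARHR045650 (AT1G55940, r = 0.91) completed the 8. All 8 were, like *NPC4*, lower on average in Dex than in Mock at 2 h and lower in both at 4 h. As they were chosen by r over these same libraries, this shared course is largely set by the choice. In some the Dex difference at 2 h was within the SD, as for CARHR243700 (50.5 ± 17.2 CPM in Mock and 36.7 ± 4.04 in Dex). Within groups the likeness was mostly lost, with an r of the deviations from the group means between -0.03 and 0.55. The similar course thus lies largely in the group means, where this r does not separate time from treatment. In the later groups *NPC4* varied no more than its counting error, which limits the r of the deviations.

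Among genes with a name pair the lowest r was that of *OEP16* (CARHR122070, r = -0.90; 33 genes tested, itself included, had an r as low or lower), a gene of the plastid outer envelope, which was at 54.7 ± 0.515 CPM in Mock and 62.1 ± 6.37 in Dex at 2 h and at 167 ± 2.41 and 277 ± 55.2 CPM at 8 h. CARHR230050 (AT4G22990) and CARHR275120 (AT5G61360) followed, both at r = -0.89.

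**Figure D4:**
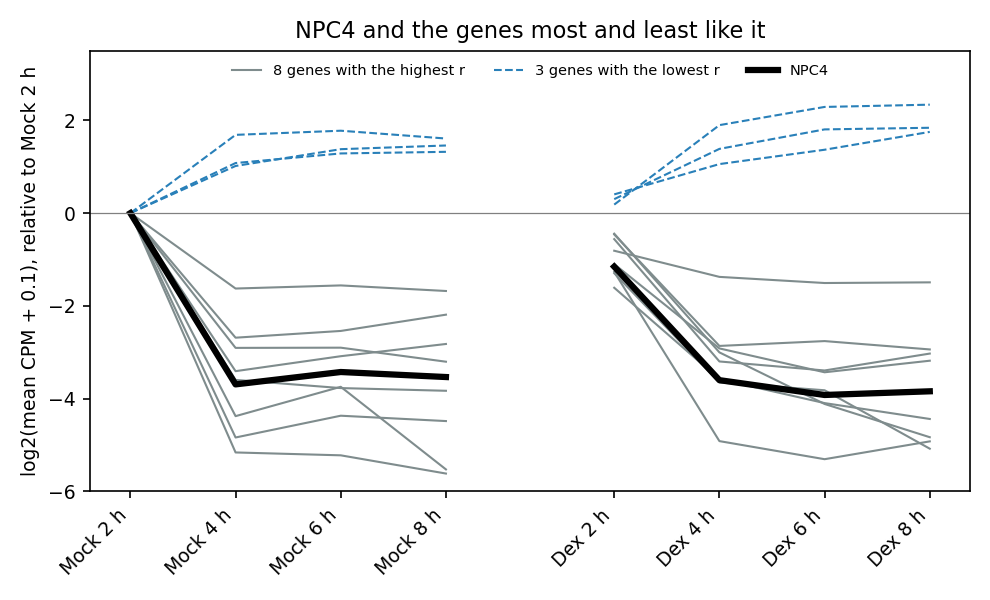
Log2 of mean CPM + 0.1, relative to Mock at 2 h (vertical axis), in the 8 groups (horizontal axis) for *NPC4* (black), the 8 named genes of highest r (grey) and the 3 of lowest r (blue, dashed). The 8 genes drop between 2 h and 4 h in Mock and in Dex as *NPC4* does, and the 3 genes rise.

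The rest of the pathway was taken from lists of 80 *A. thaliana* genes, of which 27 had a name pair and 24 were tested. Of the 27, 13 were paired only in tables of genes that the study called on these same libraries, so a count over a list partly repeats how its members came to be named and gives no independent support. No gene of the phosphoinositide-specific phospholipase C list had a pair. At 2 h, 0 of 24 were called in Dex against Mock, with a median log2 fold change of -0.86 against 0.02 over all genes tested. In the average of the times 1 was called higher and 8 lower (37.5% against 13.7% of all genes, 4.76% higher and 8.89% lower), with a median of -0.36 against 0.04. Among the 11 tested genes that have a pair in tables of binding, 3 were called (27.3%). These 3, *G3PP1*, *SHB1* and *PHT3;2*, are paired in tables of called genes as well. None of the genes paired in tables of binding alone was called in the average. The medians depended on how the genes were named. These 11 had a median of 0.15 in the average and -0.21 at 2 h. The 13 paired only in tables of called genes had -0.46 and -1.01.

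*NPC2* (CARHR119030) was the 1 other member of the NPC family that could be followed. In Dex at 2 h it stood at 19.7, 19.5 and 19.0 CPM, and in Mock at 12.9, 15.7 and 16.4 CPM, so it was higher in Dex where *NPC4* was lower. Averaged over the times its log2 fold change was 0.48 ± 0.11 (adjusted p = 0.006 by edgeR), under the fold limit. With time it gave -0.23 ± 0.22 in Mock at 4 h against 2 h (adjusted p = 0.492 by edgeR), where *NPC4* gave -3.76.

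Of the phospholipases D, which release phosphatidic acid directly, *PLDALPHA3* (CARHR188090) was at 3.20, 4.74 and 3.98 CPM in Mock at 2 h and at 2.50, 1.97 and 1.40 CPM at 4 h. Its log2 fold change was -1.02 ± 0.25 in Mock by 4 h (adjusted p = 0.009 by edgeR) and -1.14 ± 0.25 in Dex by 8 h (adjusted p = 0.003). *PLDEPSILON* (CARHR044800) fell in Dex at 8 h against 2 h (-1.65 ± 0.52, adjusted p = 0.028 by edgeR), and *PLDZETA2* was called in none of these comparisons. The phospholipases D gave no call in the average of Dex against Mock.

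Both tested genes of the list on diacylglycerol and phosphatidic acid, and 1 of 2 of the list on galactolipid and sulfolipid synthesis, were called lower in Dex in the average (8.89% of all genes were). These 3 were named only through the study's tables of called genes, and *MGD3*, which is also paired in a table of binding, was not called. The diacylglycerol kinase gene *DGK5* (CARHR111630), whose product makes phosphatidic acid, was lower by -0.91 ± 0.23 (adjusted p = 0.009 by edgeR), and *LPP1* (CARHR143720), for a phosphatidate phosphatase that acts in the reverse direction, by -1.27 ± 0.39 (adjusted p = 0.019). *DGD2* (CARHR248720), a digalactolipid synthase gene, was lower by -0.83 ± 0.17 (adjusted p = 0.005). At 2 h *DGD2* stood at 15.1, 27.6 and 17.7 CPM in Dex and at 31.8, 36.7 and 35.9 CPM in Mock. *MGD3* (CARHR104980), a monogalactolipid synthase gene, gave 1.08 ± 0.46 (adjusted p = 0.069).

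Of 4 tested genes of glycerophosphodiester turnover, *GDPD1* (CARHR074920), for a phosphodiesterase, and *G3PP1* (CARHR156060), for a glycerol-3-phosphate permease, were lower in Dex by -0.93 ± 0.28 (adjusted p = 0.016 by edgeR) and -0.61 ± 0.22 (adjusted p = 0.038). *GDPD2* (CARHR213290) was called in time, at -1.66 ± 0.58 in Mock at 8 h against 2 h (adjusted p = 0.038). The turnover genes ran from -0.93 to -0.44 in the average of Dex against Mock.

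Genes of phosphate sensing and starvation did not go one way. The ubiquitin ligase gene *NLA* (CARHR002200), whose product removes phosphate transporters, was lower in Dex by -0.89 ± 0.16 (adjusted p = 0.005 by edgeR), and the ribonuclease gene *RNS1* (CARHR145410) was higher by 0.91 ± 0.29 (adjusted p = 0.021). *SPX1* (CARHR192680) and *PS2* (CARHR065980), which respond to phosphate starvation, gave -0.43 ± 0.22 (adjusted p = 0.130) and -0.46 ± 0.21 (adjusted p = 0.088). *RNS1* also fell with time in Mock, from 5.22, 31.5 and 22.7 CPM at 2 h to 1.06, 4.45 and 3.87 CPM at 4 h (-2.67 ± 0.59, adjusted p = 0.005). Of these genes, *RNS1* was the 1 called in the first step in Mock.

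In the list on phosphate transport, *SHB1* (CARHR232760) was lower in Dex by -1.17 ± 0.27 (adjusted p = 0.006 by edgeR). It is listed as a member of the PHO1 family, and no transport of phosphate by it is claimed. *PHT3;2* (CARHR157660), for a mitochondrial phosphate carrier, was lower by -1.73 ± 0.60 (adjusted p = 0.032). *PHO1;H1* (CARHR061560) fell in Mock by 0.73 ± 0.24 between 2 h and 4 h (adjusted p = 0.042) and by 1.52 ± 0.25 between 2 h and 8 h. *PHT1;4* (CARHR133660), a phosphate uptake transporter gene, rose in Mock between 2 h and 8 h by 1.34 ± 0.36 (adjusted p = 0.009). *PHT1;3* (CARHR180250) stood at 5.43, 0.571 and 5.98 CPM in Dex at 2 h, high in the 2 Dex libraries with the highest root marker sums, and at 0, 0.663 and 0.344 CPM in Mock.

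With time, 3 of the 24 pathway genes were called lower in Mock at 4 h against 2 h (12.5%). Of all genes 8.44% were called lower there and 14.7% in either direction. In Dex 1 was called lower, *PHT1;9* (CARHR069990, -2.24 ± 0.62, adjusted p = 0.037 by edgeR), which is 4.17% of the 24. Of all genes 4.19% were called lower there and 5.55% in either direction. At 8 h against 2 h, 1 was called higher and 4 lower in Mock (20.8%, against 24.3% of all genes, 8.88% higher and 15.5% lower), and 1 higher and 4 lower in Dex (against 17.4%, 6.67% higher and 10.7% lower). These shares are near those of all genes. The 3 falls called in Mock by 4 h were smaller than that of *NPC4*. Since *NPC4* was chosen with its fall known, nothing is read from this. *PHT1;3*, at a mean of 0.336 CPM in Mock at 2 h, fell by more (-5.76 ± 2.54) but was not called (adjusted p = 0.121 by edgeR).

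The Dex calls of the pathway rest on which libraries are kept. Without replicate 1, or without replicate 3, at all times and in both treatments, 0 of the 24 genes were called in the average, and without replicate 2 there were 15. Several Mock libraries of replicate 1 stood apart, as for *LPP1* at 6 h with 191, 28.3 and 23.1 CPM in Mock replicates 1, 2 and 3 and 9.17, 33.1 and 32.1 CPM in Dex. Single libraries also ended calls. *LPP1* was not called without Mock replicate 1 at 4 h or at 6 h, *RNS1* in the average without Dex replicate 1 at 4 h, and *PHT3;2* without Dex replicate 3 at 2 h, Mock replicate 1 at 4 h or 6 h, or Dex replicate 1 at 8 h. *PLDALPHA3* in Mock at 4 h was not called without Mock replicate 2 at 2 h or Mock replicate 3 at 4 h. *G3PP1*, *PHO1;H1* in Mock at 4 h, *GDPD2* in Mock at 8 h, *PLDEPSILON* in Dex at 8 h and *PHT1;9* in Dex at 4 h each lost the call without any 1 of several libraries. All of these kept their direction. When replicates or single libraries were left out, the Dex difference of *NPC4* ran from -1.25 to -1.06 at 2 h and from -0.11 to 0.32 at 4 h, and the 1 call at 2 h was lost without replicate 1, 2 or 3 and when any 1 of the libraries Dex replicate 1, Mock replicate 3 and Dex replicate 3 at 2 h was left out.

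**Figure D5:**
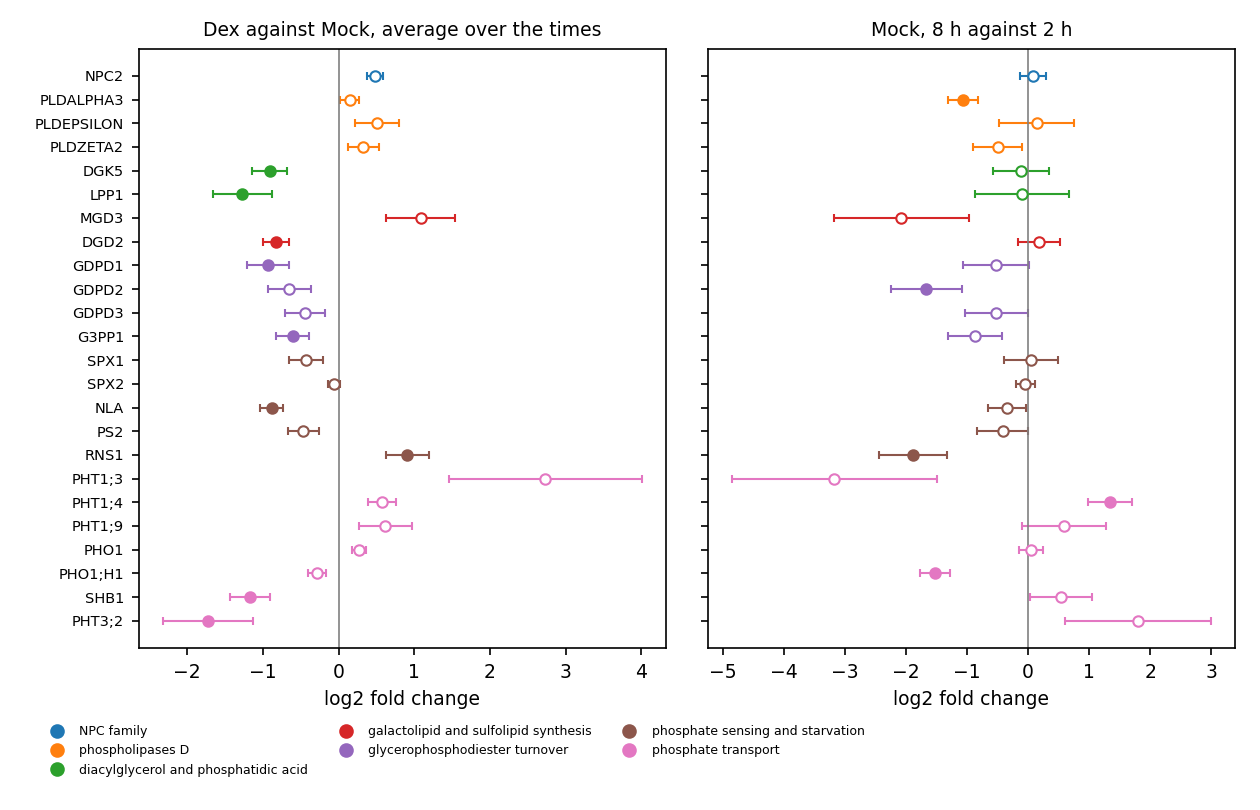
Log2 fold change ± SE (horizontal axes) of the 24 tested pathway genes (rows), coloured by list, for Dex against Mock averaged over the times (left) and for Mock at 8 h against 2 h (right). Filled points are called genes: 1 higher and 8 lower at left, 1 higher and 4 lower at right.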

How the data were processed

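Poly(A) RNA of 24 pools was sequenced with a directional kit. Per library, the authors deposited 1 table of raw read counts by gene. The submitters' processing notes name STAR 2.4.2a, HTSeq 0.5.4p1 and DESeq. Build, annotation and strand setting were not stated in the sources used here, so overlapping genes may share reads. Reads outside genes (5.65% to 15.8%) and ambiguous reads (0.192% to 0.370%) stayed out of library sizes.

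Counts were fitted with edgeR 4.0.16 in R 4.3.3 (TMM, filterByExpr with a minimum count of 10, glmQLFit robust, glmQLFTest two-sided), with 1 coefficient per group over all 24 libraries. The SE of a log2 fold change is its size divided by the square root of the F of edgeR's quasi-likelihood test. Log2 CPM has a prior count of 2. DESeq2 1.42.0, other scalings, no filter, a replicate block, each time alone and leaving out replicates were alternatives. The fit was tested on simulated data. The contrasts between successive times were added after *NPC4*'s counts had been seen.

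The gene, the lists and the tests were chosen with earlier results of these data known. Named were *NPC4*, *ChCUC1*, paired list members, and the 8 paired genes of highest and 3 of lowest r. Names come from 4038 identifier pairs printed in supplementary tables of the study; 3571 tested genes have one. The reference table matched 0 identifiers, and no sequence or coordinates are printed. Same-numbered Dex and Mock libraries of a time had r between -0.593 and 0.137 in their deviations from group means, with 10 of 12 below 0, so the numbers were not taken to pair libraries.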

Additional observations from a re-analysis of the deposited data

How the results depend on the processing

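The direction of *NPC4* held under every alternative run for Dex against Mock at 2 h (-1.25 to -1.06 on the log2 scale), 6 h (-0.67 to -0.37) and 8 h (-0.44 to -0.20), for the average (-0.51 to -0.37) and for 8 h against 2 h in Mock (-3.68 to -3.52) and Dex (-2.91 to -2.63). For 4 h against 2 h it was -3.91 to -3.65 in Mock and -2.62 to -2.38 in Dex. At 4 h the Dex difference of 0.10 was 0.30 with library totals, which also moved the median of all genes from 0.04 to 0.23, and -0.11 to 0.32 with replicates left out: it turned to -0.11 without replicate 1 and to -0.02 without Dex replicate 1. The later levels of 26 to 53 reads limit these values, and the cause of the shifts was not tested.

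Counts of calls moved more. For Dex against Mock at 2 h the 1 call became 0 with library totals, 0 with the libraries of that time alone, 117 with DESeq2, and 0 to 260 with replicates left out. At 4 h, 0 calls became 134 with DESeq2 and 0 to 336 with replicates left out. At 6 h they became 2 and 0 to 1, and at 8 h 136 and 0 to 169, with 88 for the libraries of 8 h alone. The average had 2962 calls, and 0 to 4809 with replicates left out (149 without replicate 1, 4809 without replicate 2 and 0 without replicate 3). Its 1033 higher and 1929 lower calls became 1667 and 1535 with library totals, and the median of all genes moved from 0.04 to 0.15. Calls for 8 h against 2 h ran from 2008 to 6136 in Mock (5279 with all libraries) and from 938 to 4436 in Dex (3778), where the split of 1447 higher and 2331 lower became 1940 and 1883 with library totals. For 4 h against 2 h they ran from 133 to 4789 in Mock (3195) and from 24 to 1701 in Dex (1204), and the split in Mock of 1365 higher and 1830 lower became 739 and 2232. Of the pathway genes, the 9 called in the average became 0 to 15 with replicates left out. They became 3 when only genes with a pair in tables of binding were kept, and these 3 are paired in tables of called genes too. The 5 called in Mock at 8 h against 2 h became 1 to 7 and 2 in the same 2 ways.

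With the replicate number as a block, *NPC4* gave -1.16 at 2 h, 0.11 at 4 h, -0.52 at 6 h, -0.32 at 8 h and -0.47 in the average, and -3.59 in Mock and -2.75 in Dex at 8 h against 2 h. The block left 1, 0, 0 and 0 calls at the 4 times, 2812 in the average, 5242 in Mock and 3745 in Dex at 8 h against 2 h, 8 pathway genes in the average and 4 in Mock. Of the named pathway genes, *LPP1* in the average and *GDPD2* in Mock were no longer called under the block. *LPP1* also lost its call without Mock replicate 1 at 4 h or at 6 h, and *G3PP1*, near the fold limit, lost it in 15 of 32 alternatives.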
